A study of Homo sapiens with 6 samples.

Results

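The IL6 family receptors and STAT3 target genes were described in SW480 cells, a long-established line from a human colon carcinoma, on 6 one-colour Affymetrix arrays. The members were the receptor genes IL6R, IL6ST, OSMR and LIFR, the kinase gene JAK1, the transcription factor gene STAT3, and 4 genes that STAT3 is known to switch on, SOCS3, PIM1, LCN2 and CEBPD. Every probe set that the platform annotation pairs with 1 of these 10 genes alone was taken, which gave 35 of the 41091 single-gene probe sets on the array. Cells had been given either a non-targeting short hairpin RNA (shRNA, n = 3 arrays, the control) or an shRNA against gankyrin (n = 3 arrays, the knockdown), in both cases for 4 days. All cells were kept in the same medium with serum, and the labels name no cytokine or other added agent. The number of hairpins and of infected cell populations is not given in the labels, nor whether the replicates were separate cultures, so p-values reflect array-to-array spread alone, which may be technical.

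Cytokines of the IL6 family, such as IL6, LIF, oncostatin M and IL11, bind a ligand-specific receptor chain and bring in the shared chain gp130, which IL6ST encodes. The kinase JAK1 on gp130 then phosphorylates STAT3, which enters the nucleus and raises genes for survival and for the acute-phase response, together with SOCS3, an inhibitor that closes the loop by binding gp130 and JAK kinases. In the intestinal epithelium this pathway is known for its part in wound repair and in the growth of colitis-associated tumours. The arrays measure RNA only, so the phosphorylated, active form of STAT3 was not measured here.

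Gankyrin (PSMD10) was at log2 signals of 10.19, 10.23 and 10.15 in control and 6.58, 6.47 and 6.30 in knockdown replicates 1 to 3, which matched the labels on all 6 arrays. NFIL3, given as the hairpin's target in one line of the design text, differed by -0.26 (limma, adjusted p = 0.0281). This call was lost when control replicate 2 (0.0630) or knockdown replicate 1 (0.0661), 2 (0.0967) or 3 (0.112) was left out, and with no intensity trend (0.0621). The epithelial genes EPCAM, KRT8 and KRT18 had mean log2 signals of 12.20, 11.05 and 13.02, while CDX2 was at 4.16. Markers of other cell types were mixed. PTPRC (leukocytes), COL3A1 (fibroblasts), CDH5 (endothelium) and ALB (liver) had mean signals of 2.65, 2.74, 2.51 and 2.47, whereas ITGAM was at 5.72, COL1A1 at 7.12, PECAM1 at 5.08 and the liver genes CYP3A4 and TTR at 6.20 and 6.18. LYZ, also a leukocyte marker, was at 12.29 and differed by -0.04 between groups. Of the 8 epithelial markers listed 3 fell and 1 rose, with CDH1 at -0.64 and VIL1 at 0.82 (limma, adjusted p = 0.000863 and 0.000233), and their part in the results was not tested. To mark where signals become hard to tell from background, 50 probe sets of tissue-restricted genes were taken, and 95% of their means lay below 4.95, a level that ITGAM, COL1A1, PECAM1, CYP3A4 and TTR exceeded.

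Control replicate 3 stood apart from the other 5 arrays. Of the 32759 probe sets tested, 972 lay more than 1 log2 unit below both other arrays of the same group in control replicate 3, against 0 or 1 on each other array. The manufacturer's control probe sets for ACTB gave a signal at the 3' end of the transcript that exceeded that at the 5' end by 1.82 (log2) on this array and by 0.43 to 0.53 on the others. For GAPDH the same difference was 0.56 on this array and between -0.11 and 0.00 on the others. The differences of the tested member genes are therefore given with and without control replicate 3.

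**Figure D1:**
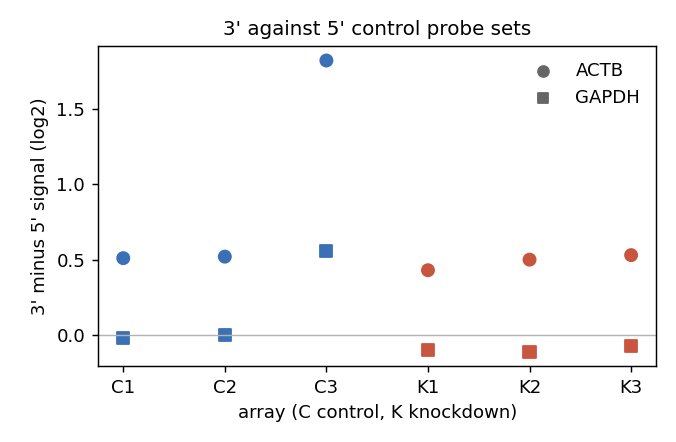
Difference between the signals of the 3' and 5' control probe sets (log2) for ACTB (circles) and GAPDH (squares) on each array, controls in blue and knockdowns in red. Control replicate 3 (C3) lies above the other 5 arrays for both genes, at 1.82 for ACTB and 0.56 for GAPDH.

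Of the 10 genes, 8 had a probe set above the filter on low signals and were tested, each by its brightest probe set. LCN2, PIM1 and STAT3 fell, and the other 5 did not pass. The share called over all 14199 genes was 22.5% in either direction and 14.3% lower in knockdown (limma, adjusted p under 0.05), so 3 of 8 is a count of few genes beside a broad background. The groups did not overlap for these 3 of the 8, all lower in knockdown, against 40.3% of all genes in either direction and 24.6% lower. The median log2 difference of the 8 genes was -0.12, against -0.02 over all genes. Over the 19 tested probe sets of the members the median had the other sign, 0.05, against -0.003 over all probe sets. Of these 19, IL6ST supplied 5 and JAK1 4, and control replicate 3 lay low on several of them. Without control replicate 3 the same comparison called 4 of the 8, with IL6ST as a rise, and 29.3% of all genes. With 3 arrays per group an exact permutation test (two-sided) cannot give less than p = 0.1, and LCN2, PIM1 and STAT3 each reached that value.

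**Figure D2:**
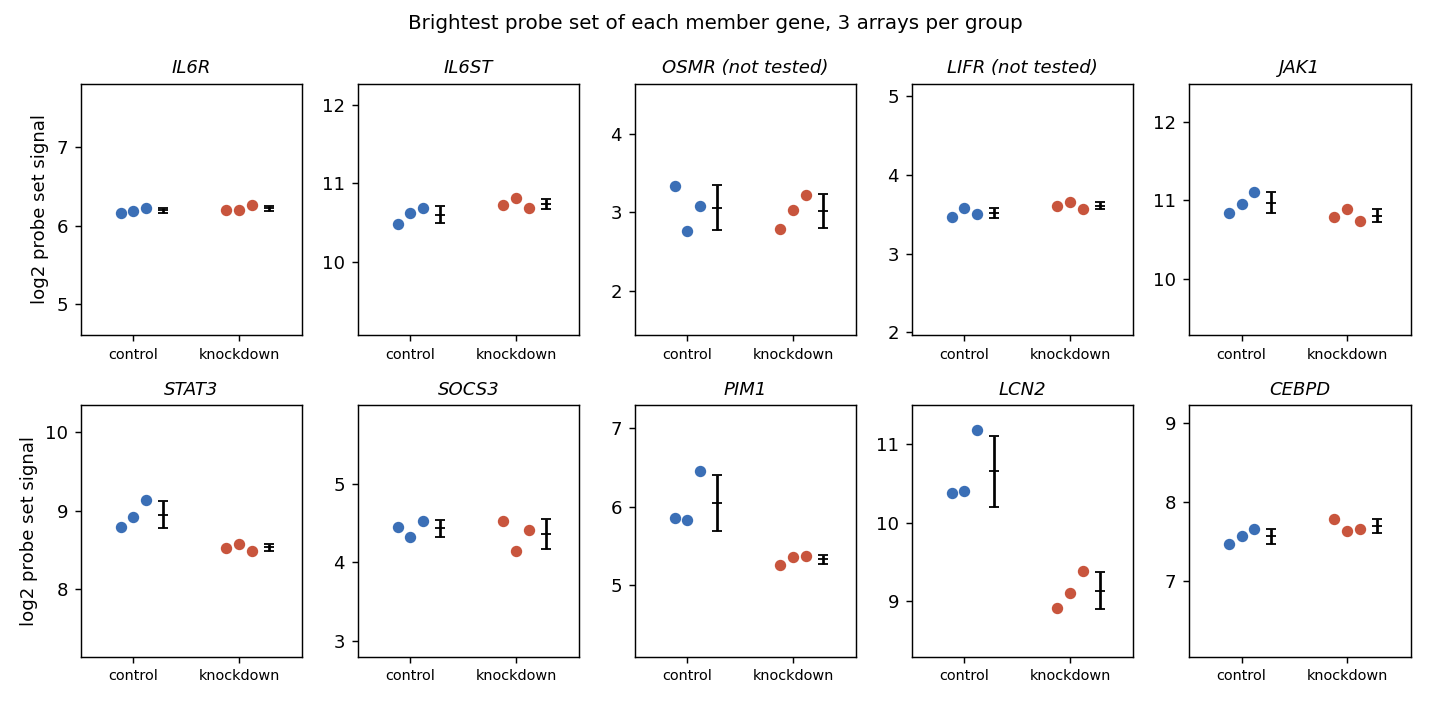
Log2 signal of the brightest probe set of each member gene on the 3 control (blue) and 3 knockdown (red) arrays, with mean and SD in black. Each panel spans the same number of log2 units around its own centre. The groups separate for STAT3, PIM1 and LCN2, and OSMR and LIFR were too dim to be tested.

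LCN2 encodes lipocalin 2, a secreted protein that binds bacterial siderophores and so withholds iron. The 250 bases before its annotated start are shown because it had the largest difference among the members' brightest probe sets. They lie at chr9:128149203-128149452 on the plus strand (GRCh38.p14, RefSeq). The capitals mark a pair of overlapping matches to a loose NF-kB pattern, GGG and TCC with any 4 bases between them on the plus strand and GGA and CCC so spaced for the other strand, the first of which starts 176 bases before the gene.
LCN2 promoter: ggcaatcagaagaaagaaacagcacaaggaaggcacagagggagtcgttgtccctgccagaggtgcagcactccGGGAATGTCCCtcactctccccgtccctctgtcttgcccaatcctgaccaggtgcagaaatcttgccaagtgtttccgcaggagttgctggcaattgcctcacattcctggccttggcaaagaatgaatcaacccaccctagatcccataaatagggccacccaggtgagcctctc
This loose pattern occurs on either strand in 19.9% of 35116 promoter windows of the same length, and among the members in those of LCN2, IL6ST and PIM1. The STAT motif TTCNNNGAA, which reads the same on both strands, occurs in 6.57% of the windows. Windows were held for 9 of the 10 members, and of these LIFR alone had the motif, in 2 of its 3 windows. The overlapping pair in LCN2 is a single stretch that matches once on each strand. Only the STAT motif was in the planned analysis, and the NF-kB pattern was added to it. These matches are letters in a window and were not tested for binding.

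LCN2 was at 10.38, 10.40 and 11.18 in control and at 8.91, 9.11 and 9.38 in knockdown replicates 1 to 3. All 3 knockdown arrays lay below all 3 control arrays, and control replicate 3 was the highest of the 6. LCN2 fell 2.87-fold (log2 fold change -1.52 ± 0.19 SE, limma adjusted p = 0.000618). Without control replicate 3 the difference was -1.26 (limma, adjusted p = 9.33e-08). The genes whose pattern over the 6 arrays was most like that of LCN2, by Pearson's r on the log2 scale, were CD276 (an immune checkpoint molecule of the B7 family), NSUN7 and RALGDS (an exchange factor for Ral GTPases). Their r values were 1.00, 0.998 and 0.997, and 50 genes were above 0.99. These values describe 6 points that fall into 2 groups, with control replicate 3 high among the controls.

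PIM1 encodes a serine/threonine kinase that supports survival and growth. Its only probe set was at 5.86, 5.83 and 6.46 in control and at 5.26, 5.36 and 5.37 in knockdown replicates 1 to 3. The groups did not overlap, and control replicate 3 was again the highest array. PIM1 fell 1.65-fold (log2 fold change -0.72 ± 0.16 SE, limma adjusted p = 0.00920). The PIM1 difference was -0.52 without control replicate 3 (limma, adjusted p = 0.000512). Its relatives PIM2 and PIM3 differed by -0.26 and -0.22 and did not pass (limma, adjusted p = 0.0840 and 0.170).

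STAT3 itself was at 8.79, 8.92 and 9.13 in control and at 8.53, 8.58 and 8.49 in knockdown replicates 1 to 3 on its brightest probe set, 208991_at. The knockdown arrays lay close together and below every control array. STAT3 fell 1.33-fold (log2 fold change -0.41 ± 0.09 SE, limma adjusted p = 0.00773). The STAT3 difference was -0.32 without control replicate 3 (limma, adjusted p = 0.000720).

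The other STAT3 probe sets were lower in knockdown by smaller or less even amounts. Probe set 225289_at went from 7.54, 7.49 and 8.16 to 7.36, 7.40 and 7.22, with no overlap (as for 20% of all probe sets, lower in knockdown), and 208992_s_at from 8.54, 8.67 and 8.26 to 8.34, 8.34 and 8.29, where control replicate 3 lay just below all 3 knockdown arrays and the other controls above them. In the fit over all 32759 probe sets, which called 10.6% of them and 6.54% as lower, 208991_at passed (limma, adjusted p = 0.0328) and the other pair did not (adjusted p = 0.185 for 225289_at and 0.345 for 208992_s_at). Without control replicate 3, 208992_s_at passed as well, at -0.28 (limma, adjusted p = 0.00526), and 225289_at did not, at -0.19 (adjusted p = 0.0935). In this fit 208991_at missed the threshold when control replicate 2 (adjusted p = 0.0718) or knockdown replicate 1 (0.118), 2 (0.105) or 3 (0.130) was left out. The fourth, 243213_at, had a mean of 3.41 and was not tested.

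SOCS3, the feedback inhibitor, gave different pictures on its probe sets. All 4 had means below 4.95, the level that bounds 95% of the tissue-restricted probe sets. The brightest, 206360_s_at, was at 4.45, 4.32 and 4.53 in control and 4.52, 4.15 and 4.41 in knockdown replicates 1 to 3. These ranges overlapped, and the difference of -0.07 ± 0.12 (log2 ± SE) did not pass (limma, adjusted p = 0.706), nor did that of -0.025 without control replicate 3 (adjusted p = 0.915).

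Probe set 227697_at was at 4.02, 4.29 and 4.59 in control and at 2.64, 3.05 and 2.96 in knockdown, with no overlap and a difference of -1.42. Its mean over all arrays, 3.59, lay just under the filter limit of 3.60, so it was tested only in the fit with no filter, where it passed (limma, adjusted p = 0.00350) and 3.23% of all probe sets were called lower. Probe set 206359_at, at 3.31, 3.39 and 3.55 against 3.11, 2.92 and 2.87, also did not overlap and missed the threshold in that fit (adjusted p = 0.0539). Groups lay apart and lower in knockdown for 20% of the probe sets above the filter, and no such share was taken below it. The remaining SOCS3 probe set, 214105_at, overlapped between groups. A fall of SOCS3 thus passed on 1 of 4 probe sets, at a signal where the size of a difference is uncertain.

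CEBPD encodes C/EBP delta, a leucine zipper factor of the acute-phase response. It was at 7.47, 7.57 and 7.66 in control and at 7.79, 7.63 and 7.66 in knockdown replicates 1 to 3. The ranges overlapped, and the difference of 0.13 ± 0.08 (log2 ± SE) did not pass with all arrays or without control replicate 3 (limma, adjusted p = 0.303 and 0.0791). Of the 4 target genes among the members, CEBPD was the only one whose brightest probe set had a positive difference. Its second probe set had a mean of 2.17 and was not tested.

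Among the receptors, IL6ST had 7 probe sets, 5 of them above the filter. The brightest, 212195_at, was at 10.48, 10.63 and 10.69 in control and 10.72, 10.81 and 10.69 in knockdown replicates 1 to 3. Control replicate 3 equalled knockdown replicate 3, and the difference of 0.14 ± 0.06 (log2 ± SE) did not pass (limma, adjusted p = 0.133).

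On the other 4 tested IL6ST probe sets every knockdown array lay above every control array, as for 15.5% of all probe sets. Probe set 204863_s_at went from 7.01, 6.98 and 6.57 to 7.54, 7.57 and 7.49, a rise of 0.68 (limma over all probe sets, adjusted p = 0.0180), where 4.05% of all probe sets were called higher. This probe set missed the threshold when knockdown replicate 1 (limma, adjusted p = 0.0803), 2 (0.0868) or 3 (0.0793) was left out. The remaining 3 had differences of 0.57, 1.13 and 1.55 that did not pass (adjusted p = 0.199, 0.125 and 0.299). Their control values were uneven, since control replicate 3 lay 1.01, 1.66 and 3.58 below the mean of the other 2 controls on 212196_at, 211000_s_at and 204864_s_at. On the last of these it was at 3.51, against 7.05 and 7.13 in control replicates 1 and 2.

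The fit without control replicate 3 called 21.7% of all probe sets in either direction, and 3188 of the 32759 as higher in knockdown. All 5 tested IL6ST probe sets passed in it as higher. Their log2 differences were then 0.18 on 212195_at, 0.24 on 212196_at, 0.54 on 204863_s_at, 0.58 on 211000_s_at and 0.36 on 204864_s_at, with limma adjusted p-values between 0.000100 and 0.0257. Leaving out that array thus lowered the difference on the other 4 probe sets and brought their sizes closer together. Whether these probe sets read the same transcripts was not tested.

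**Figure D3:**
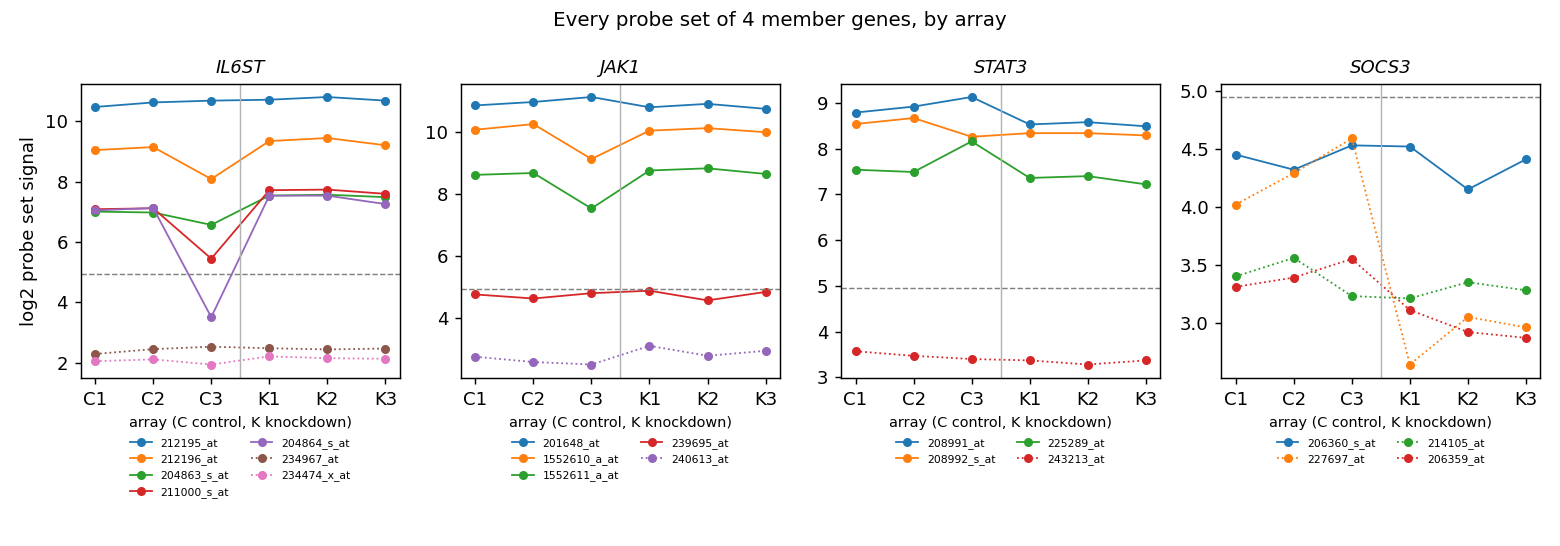
Log2 signal of every probe set of IL6ST, JAK1, STAT3 and SOCS3 on the 3 control (C) and 3 knockdown (K) arrays. Solid lines were tested, dotted lines were under the filter, and the dashed line marks 4.95, the 95th percentile of tissue-restricted probe sets. Control replicate 3 dips on 4 IL6ST and 2 JAK1 probe sets, and SOCS3 probe set 227697_at steps down between the groups.

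JAK1, the kinase that docks on gp130, showed the same dip. Its brightest probe set, 201648_at, was at 10.84, 10.95 and 11.11 in control and 10.78, 10.89 and 10.73 in knockdown replicates 1 to 3. The groups overlapped, and the difference of -0.17 ± 0.07 (log2 ± SE) did not pass (limma, adjusted p = 0.119). It passed as lower without control replicate 1, at -0.23 (limma, adjusted p = 0.0407), and was at -0.10 without control replicate 3 (adjusted p = 0.190).

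Probe sets 1552610_a_at and 1552611_a_at of JAK1 had positive differences of 0.23 and 0.47 and did not pass. Control replicate 3 lay 1.03 and 1.11 below the other controls on them. Measured against control replicates 1 and 2 alone, their differences were -0.11 and 0.10. With the probe sets of JAK1 averaged over all arrays, the difference was 0.14 in place of -0.17. That average takes in the probe sets on which control replicate 3 lay low. Against control replicates 1 and 2 alone, 201648_at was at -0.10 and 239695_at at 0.07. The sign with all arrays thus depended on which probe sets were used. With all arrays 239695_at, which did not dip on control replicate 3, was at 0.03, at a mean signal of 4.76.

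IL6R encodes the chain that binds IL6 itself. It was at 6.16, 6.19 and 6.23 in control and at 6.20, 6.20 and 6.26 in knockdown replicates 1 to 3 on its brightest probe set, a difference of 0.03 ± 0.08 (log2 ± SE) that did not pass (limma, adjusted p = 0.852), nor did that of 0.045 without control replicate 3 (adjusted p = 0.736). Its other probe sets overlapped between groups as well and differed by 0.05 and 0.16. OSMR and LIFR encode the chains that pair with gp130 for oncostatin M and LIF. Their 3 and 5 probe sets had means of 2.08 to 3.04 and of 1.68 to 3.56, all under the filter limit, and were not tested. The brightest OSMR probe set was at 3.34, 2.76 and 3.08 in control and 2.79, 3.03 and 3.22 in knockdown. The brightest LIFR probe set was at 3.46, 3.58 and 3.50 in control and 3.60, 3.66 and 3.57 in knockdown. Both overlapped, at signals that cannot be told from those of tissue-restricted genes.

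The rest of the pathway was read from lists of standard members, beside the same background of 14.3% lower and 8.13% higher over all genes. Of 13 genes chosen by the naming rule outside the members that passed with all arrays, NFIL3 among them and PSMD10 not counted, 13 also passed in the same direction when control replicate 3 was left out. They had been picked for passing on mostly the same arrays. That fit also called 29.3% of all genes, against 22.5% with all arrays, so the count is no independent support. NFIL3, IL27RA and SOCS6 lost their calls when some of the other arrays were left out. Of 5 tested ligand genes 1 fell and 4 did not pass, with a median log2 difference of 0.12. LIF, the ligand of LIFR with gp130, fell from 7.67, 7.83 and 8.07 to 7.13, 7.33 and 7.11, by 0.67 on the log2 scale (limma, adjusted p = 0.00240). IL6 had a mean signal of 2.58 and was not tested. Of 5 further receptor and sheddase genes 1 fell, the receptor gene IL27RA at -0.41 (limma, adjusted p = 0.0212), and the list's median was -0.14. IL27RA missed the threshold in limma when knockdown replicate 1 (adjusted p = 0.0637) or 3 (0.0943) was left out. The sheddases ADAM17 and ADAM10, which can release the IL6 receptor from the membrane, differed by -0.14 and -0.15 and did not pass (adjusted p = 0.534 and 0.0841).

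Of 7 other JAK and STAT genes 1 fell, with a list median of -0.04. STAT5B was at 6.93, 6.82 and 7.11 in control and 6.51, 6.29 and 6.33 in knockdown on its brightest probe set (log2 fold change -0.58 ± 0.10 SE, limma adjusted p = 0.00345). Averaged over its probe sets the STAT5B difference was -0.10 and did not pass (limma, adjusted p = 0.445). JAK2 differed by 0.30 and did not pass (limma, adjusted p = 0.0655).

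Of 19 inhibitors and adaptors of the pathway 5 fell and 14 did not pass, with a median of -0.12. SOCS2, an inhibitor best known for dampening growth hormone signalling, fell from 4.17, 4.47 and 4.59 to 3.05, 3.47 and 3.02 (log2 fold change -1.23 ± 0.15 SE, limma adjusted p = 0.000520). Both its group means lay below 4.95. Its mean over all arrays, 3.795, passed the filter limit of 3.60 only through the controls, since every knockdown array lay under that limit. The call and the size of that fall are therefore uncertain. PTPN6, the phosphatase SHP-1, fell from 6.72, 6.97 and 7.10 to 6.12, 6.19 and 6.29, by 0.73 on the log2 scale (limma, adjusted p = 0.00147). The adaptor GAB2 was at -0.60 (adjusted p = 0.00173) and SOCS6 at -0.32 (adjusted p = 0.0439). SOCS6 missed the threshold in limma when control replicate 2 (adjusted p = 0.0950) or knockdown replicate 1 (0.135), 2 (0.0787) or 3 (0.158) was left out. With its probe sets averaged SOCS6 was at -0.07 (limma, adjusted p = 0.623). SOCS1, the closest relative of SOCS3, differed by 0.02 and did not pass (limma, adjusted p = 0.914).

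Of 21 tested genes on a list of other STAT3 targets 12 fell and 9 did not pass, with a median log2 difference of -0.25 against -0.02 over all genes. Over all genes 14.3% were called lower. The list was chosen with earlier results of these data known, so its count does not test the pathway. MUC1, JUNB and IER3 passed narrowly (limma, adjusted p = 0.0446, 0.0466 and 0.0494). The count was 13 of 21 without control replicate 3, where 16.6% of all genes were called lower. FGL1, CCND1, ICAM1 and TIMP1 had the smallest p-values, at -4.28, -1.09, -0.63 and -0.31 (limma, adjusted p = 4.29e-07, 7.91e-05, 0.000795 and 0.00145). The knockdown mean of FGL1, 4.13, lay below 4.95. The list shares genes with other pathways: CCND1 (cyclin D1), ICAM1 (an adhesion molecule) and IRF1 are also targets of Wnt, NF-kB or interferon signalling. MCL1 and BIRC5, which encode survival proteins, differed by -0.05 and 0.07 and did not pass (adjusted p = 0.754 and 0.465).

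Acute-phase genes, which hepatocytes make in quantity, were mostly dim in these cells. Of 4 tested 1 rose, SERPINA3 (alpha-1-antichymotrypsin), from 7.62, 7.55 and 7.82 to 8.19, 8.14 and 8.06, by 0.47 ± 0.09 (log2 ± SE, limma adjusted p = 0.00410). All 3 knockdown arrays lay above all 3 control arrays, where 40.3% of all genes did not overlap in either direction. LBP, HAMP and FGA overlapped between groups at signals below 4.95. Of 7 relatives and partners of PIM1, CEBPD and LCN2, limma called 0, with 1 lower at an unadjusted p under 0.05. CEBPG, a relative of CEBPD, differed by 0.12 (limma, adjusted p = 0.158). It rose by 0.15 without control replicate 3 (adjusted p = 0.0316) and by 0.27 with its probe sets averaged (adjusted p = 0.0127).

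**Figure D4:**
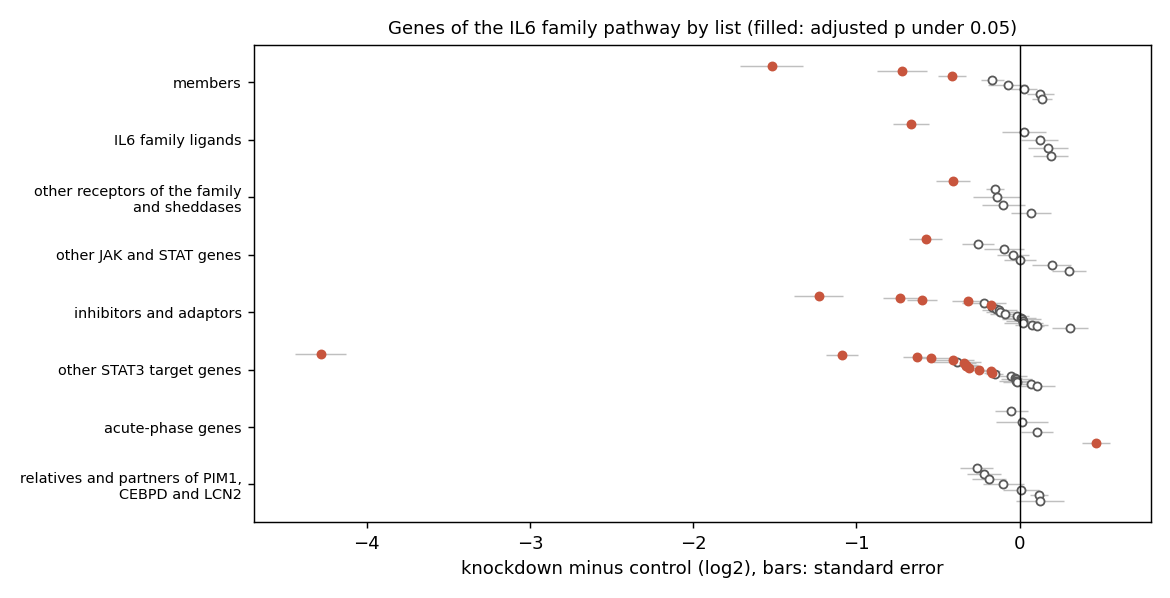
Knockdown minus control (log2) of each tested gene of the members and the 7 other pathway lists, cell type markers not included, with its standard error as a bar. Filled points passed limma at an adjusted p under 0.05, and open points did not. The filled points lie at negative values except for SERPINA3 among the acute-phase genes.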

How the data were processed

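The authors deposited 1 value per array for each of 54675 probe sets, read as log2 signals from their range (1.29 to 13.68); array medians were 4.20 to 4.25. The submitters' processing notes name MAS5, with no role or version, so the summary method is not known. The genome build is not given in the sources used here. Probe sets were named from the platform annotation, updated through Entrez identifiers to RefSeq symbols.

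The manufacturer's controls were left out, as were the dimmest 40% of those remaining, ranked by their mean (limit 3.60). Each gene was tested by its brightest single-gene probe set (14199 genes), and all 32759 probe sets in a second fit, with limma 3.58.1 in R 4.3.3 (intensity trend, two-sided, Benjamini-Hochberg, threshold 0.05). On simulated data for the 14199-gene comparison the gene fit recovered 7, 23, 45 and 50 of 50 genes changed by 0.3, 0.5, 1 and 2 on the log2 scale. It made 129 calls, 4 of them false. Far fewer genes were changed there than were called in the real data, so these rates need not hold for the real comparison. The 3 arrays per group limit the precision. Named genes were the members, PSMD10, NFIL3, and from each list up to 4 called genes, or otherwise 2, of smallest p; other genes were named after their values were seen. Members and lists were chosen with earlier results of these data known. Alternatives covered scaling, filter, variance prior, probe set choice, a replicate block and leaving out each array.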

Additional observations from a re-analysis of the deposited data

How the results depend on the processing

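LCN2, PIM1 and STAT3 fell and passed in the gene fit under all 15 alternatives, with log2 fold changes of -1.66 to -1.26, -0.83 to -0.52 and -0.49 to -0.32. LCN2 and PIM1 have 1 probe set each, so alternatives of filter or probe set choice could not change their differences. The count of called members was 3 or 4 throughout. The fit over all probe sets adjusts over more tests, and its moderated standard errors also differ from those of the gene fit. With all arrays the LCN2 SE was 0.22 there against 0.19 in the gene fit (limma, unadjusted p = 0.000183 against 1.31e-05). In the fit over all probe sets the LCN2 probe set missed the threshold when knockdown replicate 1 or 2 was left out (adjusted p of 0.0523 and 0.0514 in limma). There PIM1 and STAT3 also missed it without any one knockdown array, PIM1 without control replicate 1 (0.0591) and STAT3 without control replicate 2 (0.0718). With no intensity trend both lay just above the threshold there (0.0509 and 0.0529). IL6ST probe set 204863_s_at was called under every alternative run on probe sets except without knockdown replicate 1, 2 or 3 (0.0803, 0.0868 and 0.0793). IL27RA lost its call with probe sets averaged and without knockdown replicate 1 or 3, and SOCS6 under 9 of 15 alternatives.

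Leaving out 1 array gave 1732 to 4161 called genes, against 3189 with all arrays, the highest without control replicate 3 and the lowest without knockdown replicate 3. For probe sets the range was 716 to 7115, against 3467, the highest again without control replicate 3 and the lowest without knockdown replicate 1. The replicate numbers showed no clear pairing of the arrays: deviations of same-numbered arrays correlated at 0.02, 0.11 and -0.01. Control replicate 1 correlated best with knockdown replicate 3, while the value of 0.11, for replicate 2, was the highest of all pairs. With 3 arrays per group this check cannot exclude a pairing. With a replicate block 3049 genes and 2151 probe sets were called, the 3 members kept their calls in the gene fit, SOCS6 lost its call (limma, adjusted p = 0.0627), and STAT3 probe set 208991_at lost its call in the probe set fit (0.0591). The list counts without control replicate 3 were added after seeing the data.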
